A study of Mus musculus with 18 samples.

Results

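The genes described here encode the vacuolar proton pump (V-ATPase) and the proteins of the lysosome that it acidifies. They are 39 listed genes of the 46983 in the count tables: 18 V-ATPase subunits and accessory proteins, 10 cathepsins and 11 other lysosome genes. The list was chosen from these same count tables with their results known, and which values counted is not recorded. The members' values and tests below are therefore descriptions of this list, with no independent support from it. RNA came from adipose tissue and bone marrow of obese male mice of the inbred strain C57BL/6J, and every library name carries HFD. In each tissue 5 libraries have glutamine as treatment and as genotype label (GLN), and 4 have no treatment and the genotype label Ctrl (HFD), 18 libraries in all. Sample titles read mAT-MSC VAT for adipose and mBMSC for marrow. In the results below, adipose tissue and marrow stand for the libraries with these titles. Age, and the dose, route and duration of glutamine, were not found in the labels. Each label carries a pair of numbers that it does not explain, and no label says that libraries came from separate animals. The p-values below thus measure only how far these samples spread, and part of that spread may be technical.

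The V-ATPase is a rotary motor with a pair of sectors. V1 (subunits A to H) hydrolyses ATP in the cytosol, and the membrane sector V0 (a, c, d, e and related subunits) carries protons into the lumen. The low pH activates cathepsins and other acid hydrolases, and the pump also takes part in amino acid sensing at the lysosome surface. Genes of the system share a promoter element bound by TFEB and related MiT factors, which drive lysosome formation. In bone, osteoclasts carry a pump with the a3 subunit (Tcirg1) to the surface that dissolves mineral, and in adipose tissue lysosomes are abundant in macrophages.

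That element was searched for in the members' promoters, which are shown so that the shared letters can be seen next to the genes. RefSeq promoters of GRCm38.p6 (250 bases before to 50 after the start site) were matched for 31 of the 39 members, and a gene with several promoters counted once. The 8 letters TCACGTGA, the same on both strands, occurred in 6 of the 31 (19.4%), against 304 of 27025 genes in the table (1.12%). The shorter CACGTG, which lies inside it, occurred in 11 of 31 (35.5%), against 8.09% of the table's genes. The 6 promoters with the longer form belong to 3 pump subunits, 2 cathepsins and the lysosomal calcium channel gene Mcoln1. They are printed 5′ to 3′ on the gene's strand with TCACGTGA in capitals, and RefSeq's start can differ from the first exon of the gene model.
Atp6v0d1, chr8:105566015-105566314, minus strand: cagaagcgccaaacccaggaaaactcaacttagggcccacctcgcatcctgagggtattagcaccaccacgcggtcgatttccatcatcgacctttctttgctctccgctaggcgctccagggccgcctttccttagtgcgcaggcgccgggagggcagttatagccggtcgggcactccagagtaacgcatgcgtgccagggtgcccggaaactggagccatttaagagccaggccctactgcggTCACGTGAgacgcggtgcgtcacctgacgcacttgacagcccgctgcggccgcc
Atp6v0e, chr17:26676146-26676445, plus strand: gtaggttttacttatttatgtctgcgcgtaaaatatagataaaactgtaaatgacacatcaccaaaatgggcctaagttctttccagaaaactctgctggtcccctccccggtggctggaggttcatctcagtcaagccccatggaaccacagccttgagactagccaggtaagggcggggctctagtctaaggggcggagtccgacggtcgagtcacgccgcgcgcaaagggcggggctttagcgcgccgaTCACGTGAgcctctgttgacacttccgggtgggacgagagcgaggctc
Atp6v1a, chr16:44139210-44139509, minus strand: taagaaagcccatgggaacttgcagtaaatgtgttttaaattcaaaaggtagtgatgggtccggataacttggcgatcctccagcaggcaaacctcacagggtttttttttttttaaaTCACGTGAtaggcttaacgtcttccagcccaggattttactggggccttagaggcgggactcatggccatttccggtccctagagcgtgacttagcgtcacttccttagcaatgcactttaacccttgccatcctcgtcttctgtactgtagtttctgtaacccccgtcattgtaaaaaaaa
Ctsa, chr2:164833523-164833822, plus strand: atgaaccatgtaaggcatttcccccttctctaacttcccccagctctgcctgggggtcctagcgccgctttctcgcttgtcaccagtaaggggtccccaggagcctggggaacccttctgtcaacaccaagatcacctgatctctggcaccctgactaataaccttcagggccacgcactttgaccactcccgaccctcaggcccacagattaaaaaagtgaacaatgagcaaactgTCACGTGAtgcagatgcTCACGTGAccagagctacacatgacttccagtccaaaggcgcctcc
Ctsd, chr7:142387778-142388077, minus strand: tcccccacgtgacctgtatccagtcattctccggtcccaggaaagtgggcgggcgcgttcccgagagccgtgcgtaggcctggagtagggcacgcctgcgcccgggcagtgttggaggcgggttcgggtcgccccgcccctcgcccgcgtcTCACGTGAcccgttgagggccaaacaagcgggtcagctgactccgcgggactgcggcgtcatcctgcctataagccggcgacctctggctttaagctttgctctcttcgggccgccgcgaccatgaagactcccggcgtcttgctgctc
Mcoln1, chr8:3500269-3500568, plus strand: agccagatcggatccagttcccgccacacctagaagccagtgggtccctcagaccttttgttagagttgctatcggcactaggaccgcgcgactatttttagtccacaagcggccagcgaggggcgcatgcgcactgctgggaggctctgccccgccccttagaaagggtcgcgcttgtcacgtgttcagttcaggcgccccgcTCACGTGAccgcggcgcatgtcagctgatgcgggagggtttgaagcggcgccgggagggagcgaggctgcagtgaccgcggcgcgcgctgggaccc
A match describes letters in this window and says nothing of binding in these samples.

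Adipose libraries held 35871168 to 59529238 counts and marrow libraries 13970788 to 37984603. Levels below are in CPM, reads scaled to the same total in each library. Libraries were primed at the poly(A) tail, so a transcript gives reads near its 3′ end and CPM carry no length term. Genes with at least 100 counts numbered 11361 to 14469 per adipose library and 1755 to 7323 per marrow library. The adipose libraries held much RNA of stromal cells: 8 adipose progenitor markers summed to 16040.0 to 22750.0 CPM, while 6 adipocyte markers summed to 30.0 to 189 CPM. Most of the progenitor sum was Dcn, with means of 13850.0 CPM in adipose GLN and 14780.0 CPM in adipose HFD. In marrow libraries 7 osteoblast markers summed to 52050.0 to 240300.0 CPM and 9 neutrophil markers to 2699 to 54230.0 CPM. Most of the osteoblast sum was Col1a1, with means of 116400.0 CPM in marrow GLN and 141200.0 CPM in marrow HFD. In bulk RNA, fewer cells of a type and less RNA per cell cannot be told apart. Some members are uncertain by their position. Ctsd shares 8 exons with Gm49369 on the same strand, and 1 exon of Ctsl overlaps the pseudogene Gm49230, also on the same strand. The 3′ ends of Atp6v1e1, Ctsa, Ctsb, Ctsz, Lamp1, Grn and Npc1 overlap a gene on the opposite strand. Whether counting used the strand is not stated in the labels.

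**Figure D1:**
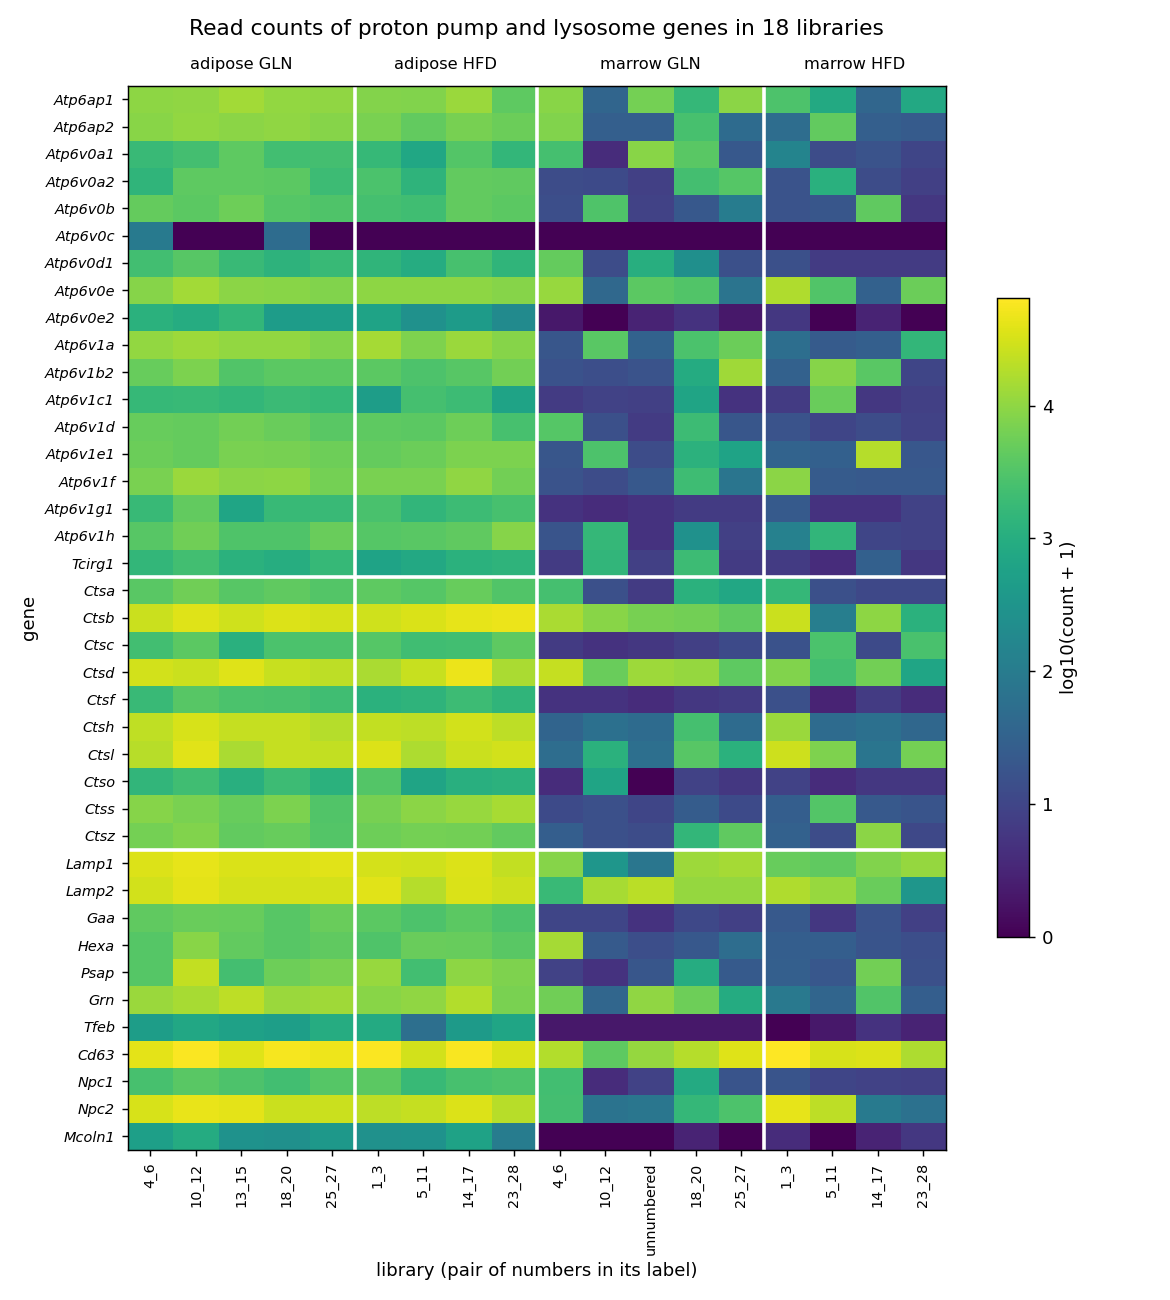
Read counts of the 39 genes (rows, in 3 classes separated by white lines) in 18 libraries (columns, in 4 groups), with colour as log10(count + 1). Adipose columns are alike except for Atp6v0c near 0, while each marrow column is bright for its own subset of 9 to 27 genes.

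All but 1 member were well covered in adipose tissue. Between 37 and 38 of the 39 reached 100 counts in each adipose library. The exception was Atp6v0c, the gene of the proton-carrying c subunit. It had 89 and 50 counts in the GLN libraries 4_6 and 18_20 and is listed at 0 in the other 16 libraries. The annotation names 2 Atp6v0c pseudogenes, so its value is uncertain and it entered no test. The 39 genes together took 0.775% to 0.878% of the counts in adipose GLN libraries and 0.720% to 0.909% in adipose HFD libraries. The other lysosome genes summed to 3513 to 4122 CPM in GLN and 2863 to 3940.0 CPM in HFD. Cathepsins summed to 2371 to 2908 CPM in GLN and 2375 to 3387 CPM in HFD. The pump genes summed to 1569 to 1912 CPM in GLN and 1395 to 1783 CPM in HFD.

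The spread of members between adipose libraries lay a little under that of other well-covered genes. Over the 9 libraries the median coefficient of variation was 28.6% for the 37 members with 100 counts in each, against 34.3% for the 8790 genes at that level. The medians were 28.7% for pump genes, 28.8% for cathepsins and 23.3% for the other genes. The steadiest was Lamp2, a lysosomal membrane glycoprotein that also serves chaperone-mediated autophagy, at 9.05%. It had 708, 673, 607, 665 and 657 CPM in adipose GLN libraries, against 716, 529, 667 and 604 CPM in adipose HFD libraries. Cathepsin H (13.0%) and the catalytic A subunit Atp6v1a (14.9%) followed. At the other end stood Psap, the precursor of the saposins that activate sphingolipid hydrolases, at 66.9%. It had 81.0, 391, 45.6, 116 and 147 CPM in adipose GLN libraries, against 219, 62.5, 187 and 166 CPM in adipose HFD libraries. In GLN libraries its level differed several-fold from library to library, with 10_12 highest and 13_15 lowest. Values of a group are given here and below in the order of their labels: 4_6, 10_12, 13_15, 18_20 and 25_27 for GLN, and 1_3, 5_11, 14_17 and 23_28 for HFD.

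The first comparison asks what glutamine changed in adipose libraries of obese mice. No member passed an adjusted p under 0.05 (edgeR quasi-likelihood test with Benjamini-Hochberg adjustment), and neither did any of the 15114 genes tested (0%). At an unadjusted p under 0.05 there were 3 of 38 members and 624 of all genes (4.13%). The members' median log2 fold change, GLN over HFD, was 0.04, beside -0.02 for all genes. It was 0.10 for 17 pump genes (11 positive), -0.16 for 10 cathepsins (2 positive) and 0.18 for the 11 other genes (10 positive). DESeq2 called 0 members as well, against 0.208% of all genes. Groups did not overlap in CPM for 2 members, Atp6ap2 and Ctsf, against 1.66% of all genes.

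**Figure D2:**
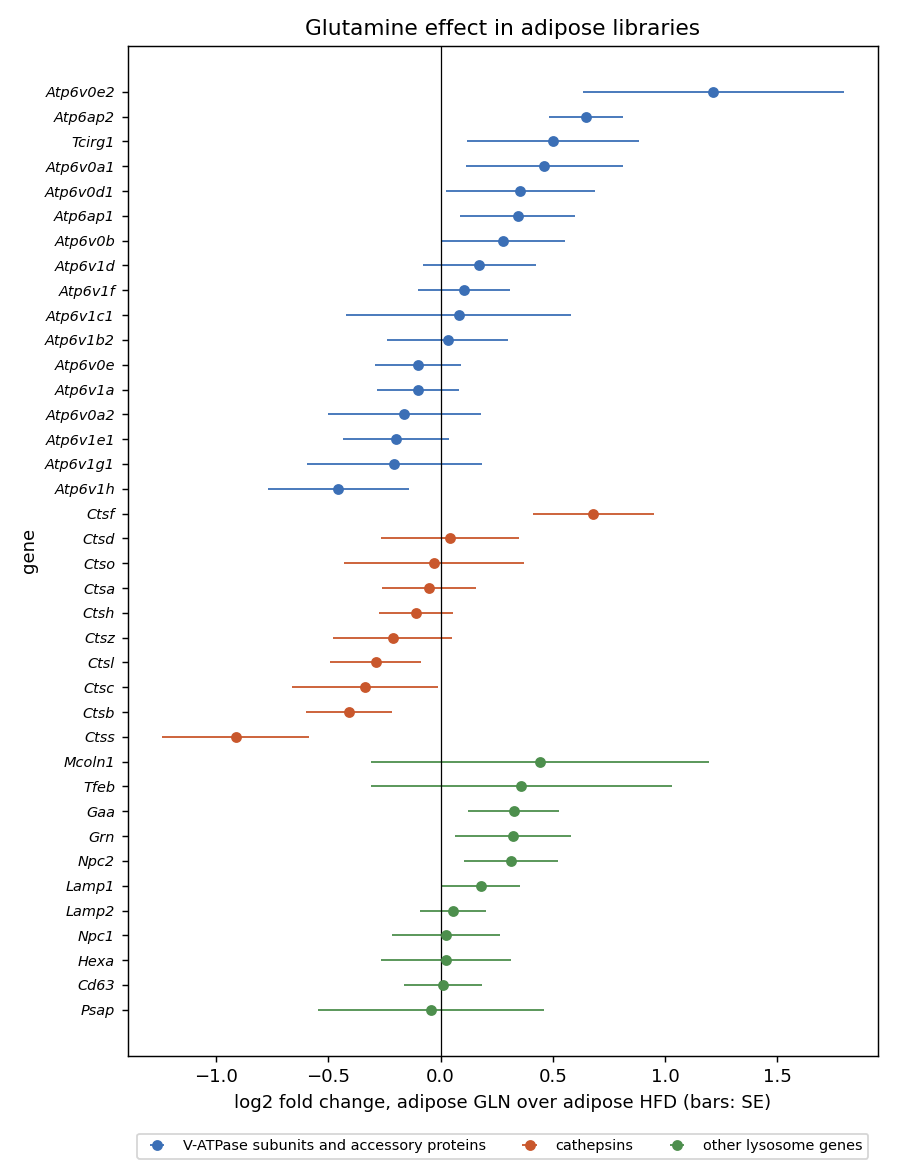
Log2 fold change of GLN over HFD in adipose libraries (x axis, bars are the standard error of the edgeR fit) for the 38 tested genes (y axis), by class and then by size. Most cathepsins sit left of 0 and most other lysosome genes right of it, with Atp6v0e2 at 1.22 and Ctss at -0.91 the farthest points.

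Among the pump genes, Atp6ap2 had the smallest p. It encodes the (pro)renin receptor, an accessory protein of the V-ATPase. Its level was 217, 181, 184, 217 and 183 CPM in adipose GLN libraries, against 126, 124, 126 and 118 CPM in adipose HFD libraries. Every GLN library lay above every HFD library, and the HFD libraries lay close together. The log2 fold change was 0.65 ± 0.165 (edgeR, adjusted p = 1.00), with the 12th smallest p of all genes tested. Leaving out any 1 of the 9 libraries gave 0.60 to 0.68.

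Atp6v0e2, the second gene of the small V0 subunit e, was the member with the largest fold change. It had 27.9, 15.7, 29.6, 9.26 and 10.5 CPM in adipose GLN libraries, against 11.5, 7.36, 8.58 and 4.36 CPM in adipose HFD libraries. In 3 GLN libraries its level exceeded all 4 HFD libraries, and the other 2 fell within the HFD range. The log2 fold change was 1.22 ± 0.579 (edgeR, adjusted p = 1.00). Its paralog Atp6v0e had 204, 237, 185, 191 and 165 CPM in adipose GLN libraries, against 183, 269, 189 and 187 CPM in adipose HFD libraries, a log2 fold change of -0.10 ± 0.190. The HFD library 5_11 was the highest for this gene, and without it the fold change was 0.07. Atp6v0e2 lay below Atp6v0e in CPM in all 9 adipose libraries.

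Atp6v1h, the regulatory H subunit of V1, had 84.8, 96.7, 59.1, 63.6 and 109 CPM in adipose GLN libraries, against 63.9, 105, 83.6 and 192 CPM in adipose HFD libraries. The groups overlapped and 1 HFD library, 23_28, stood above the rest. Its log2 fold change was -0.46 ± 0.314 (edgeR, adjusted p = 1.00) and -0.05 without that library. The a subunit, which steers the pump to its membrane, is encoded by paralogs of which 3 are members. Atp6v0a1 had 42.8, 38.8, 79.1, 46.4 and 49.9 CPM in adipose GLN libraries, against 31.2, 20.1, 64.3 and 33.2 CPM in adipose HFD libraries. Atp6v0a2 had 33.3, 69.1, 81.5, 82.6 and 41.8 CPM in adipose GLN libraries, against 51.6, 37.4, 87.5 and 96.0 CPM in adipose HFD libraries, and Tcirg1 had 36.2, 37.2, 23.1, 20.5 and 35.8 CPM in adipose GLN libraries, against 11.3, 21.7, 23.1 and 29.0 CPM in adipose HFD libraries. Groups overlapped for all 3 genes, at log2 fold changes of 0.46 ± 0.348, -0.16 ± 0.340 and 0.50 ± 0.383. Of the CPM of these 3 paralogs, Atp6v0a2 held 41.9% ± 10.6 in GLN (SD, n = 5) and 53.2% ± 5.93 in HFD (SD, n = 4). Atp6v0a1 held 35.6% ± 6.58 in GLN and 29.1% ± 7.19 in HFD, and Tcirg1 held 22.5% ± 8.84 in GLN and 17.8% ± 7.03 in HFD.

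Among the cathepsins, Ctss and Ctsf had the smallest p and opposite signs. Ctss encodes cathepsin S, which trims the invariant chain of MHC class II in antigen-presenting cells. It had 205, 115, 95.9, 149.7 and 68.0 CPM in adipose GLN libraries, against 122, 264, 223 and 329.8 CPM in adipose HFD libraries. The HFD library 1_3 fell within the GLN range and the other 3 HFD libraries lay above all GLN libraries. The log2 fold change was -0.91 ± 0.328 (edgeR, adjusted p = 1.00), from -1.17 to -0.70 when 1 library was left out. Cathepsin B (Ctsb), a broad-acting cysteine protease, had 633, 632, 572, 732 and 677 CPM in adipose GLN libraries, against 546, 971, 838 and 1033 CPM in adipose HFD libraries. The HFD library 1_3 lay below all GLN libraries and the other 3 HFD libraries above them, at a log2 fold change of -0.41 ± 0.191 (edgeR, adjusted p = 1.00). Cathepsin F (Ctsf) went the other way, with 43.3, 59.7, 53.8, 55.1 and 45.9 CPM in adipose GLN libraries, against 21.8, 36.6, 38.2 and 30.3 CPM in adipose HFD libraries. Every GLN library lay above every HFD library for Ctsf, at a log2 fold change of 0.68 ± 0.270 (edgeR, adjusted p = 1.00).

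Macrophage and antigen-presenting cell markers had mostly negative fold changes, as most cathepsins had. The 14 macrophage markers summed to 429 to 839.6 CPM in GLN libraries (median 629) and 763 to 2017 CPM in HFD libraries (median 1091). Their fold changes were negative for 13 of 14 genes, with a median of -0.95. The 6 dendritic and MHC class II markers summed to 367 to 906 CPM in GLN and 691 to 1995 CPM in HFD, negative for all 6 with a median of -1.07. The 8 lipid-associated macrophage markers had a median of -0.40 (7 negative), with sums of 1885 to 3650.0 CPM in GLN and 1995 to 3038 CPM in HFD. Other lists also leaned to one side. All 5 B and plasma cell markers tested were negative (median -0.70), while 5 of 6 endothelial markers (median 0.52) and 5 of 6 mural markers (median 0.57) were positive. None of these markers passed the test either. Their part in the cathepsin values was not tested.

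**Figure D3:**
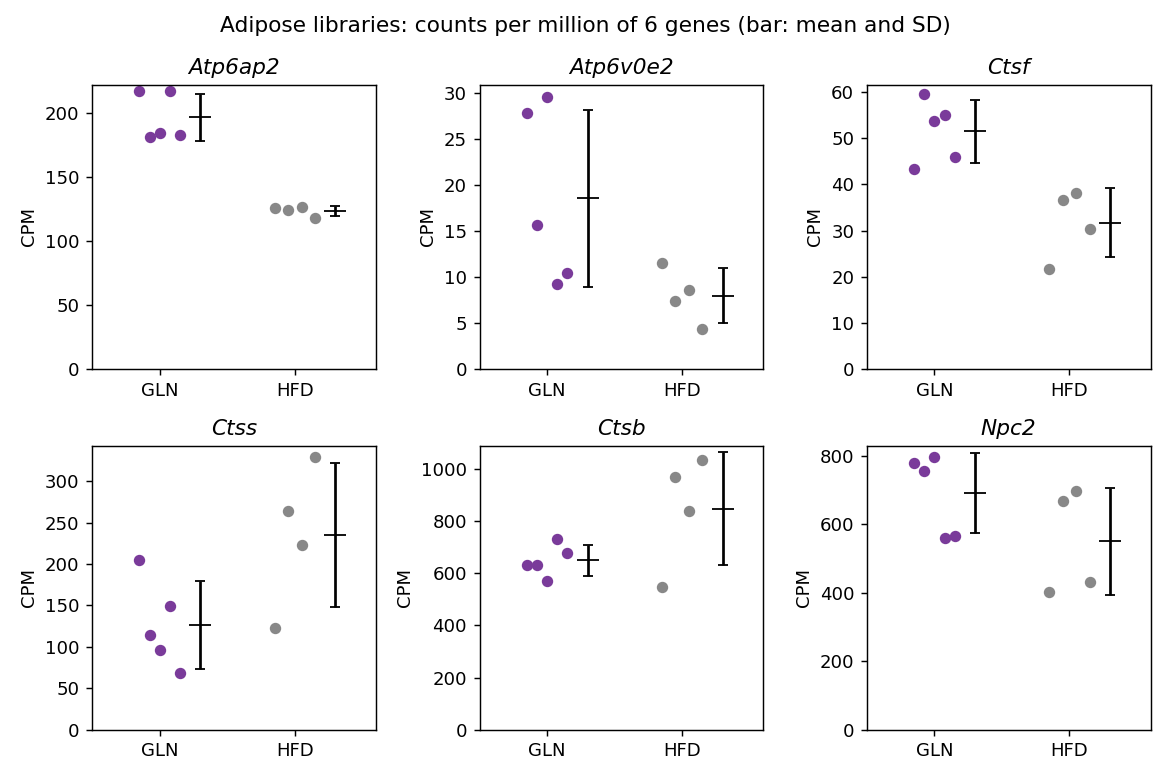
CPM per adipose library (points) with mean and SD (bars beside them) for 6 genes, GLN left and HFD right. Groups are apart for Atp6ap2 and Ctsf and overlap for Atp6v0e2, Ctss, Ctsb and Npc2.

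Of the other lysosome genes, 10 of 11 had a positive fold change and none had an unadjusted p under 0.05. The smallest p belonged to Gaa, acid alpha-glucosidase, which degrades lysosomal glycogen. It had 102, 84.5, 94.5, 76.5 and 107 CPM in adipose GLN libraries, against 71.9, 81.9, 75.3 and 63.5 CPM in adipose HFD libraries. The GLN library 18_20 fell within the HFD range, at a log2 fold change of 0.33 ± 0.203. Npc2, the soluble carrier that hands cholesterol to the membrane protein Npc1, had 779, 756, 796, 562 and 567 CPM in adipose GLN libraries, against 402, 669, 699 and 432 CPM in adipose HFD libraries. Its log2 fold change was 0.31 ± 0.211, and that of Npc1 was 0.03 ± 0.240. Grn, the gene of progranulin, a secreted protein also found in lysosomes, had 294, 250.3, 414, 252 and 286 CPM in adipose GLN libraries, against 165, 282, 351 and 151 CPM in adipose HFD libraries. Its log2 fold change was 0.32 ± 0.259, with library 13_15 highest in the GLN group. The adjusted p was 1.00 for each of these genes (edgeR). Tfeb itself was read at a low level, 11.3, 12.7, 10.8, 10.2 and 20.1 CPM in adipose GLN libraries, against 15.9, 1.59, 7.90 and 14.7 CPM in adipose HFD libraries. Library 5_11 of the HFD group was lowest and 25_27 of the GLN group highest, and the log2 fold change was 0.36 ± 0.670.

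Pathway genes outside the list gave no call in adipose tissue either. Of 33 further lysosomal hydrolases, 14 were positive and 19 negative (median -0.05). The smallest p of that list belonged to Arsb, arylsulfatase B, at 0.88 ± 0.426 (SE), and it was followed by Ppt2, a palmitoyl thioesterase, at -1.47 ± 0.728 and by Lgmn, legumain, an asparaginyl endopeptidase, at -1.38 ± 0.686. Of 25 further membrane and sorting genes tested, 7 were positive and 18 negative (median -0.20). Laptm5, of leukocyte lysosomes, had the smallest p of that list, at -0.75 ± 0.280 (edgeR, adjusted p = 1.00). Of 8 assembly factors 4 were positive (median -0.04), with Ccdc115 at -1.54 ± 0.539. The 15 genes of lysosomal signalling and MiT factors tested had a median of 0.00 (8 positive), with Fnip2, a folliculin partner, at 0.91 ± 0.508 and Mitf, a MiT factor, at 0.50 ± 0.29. Only 3 of 8 further subunits and 3 of 12 further cathepsins had enough counts to test. Cathepsin K (Ctsk), the main collagenase of osteoclasts, was among them at 0.22 ± 0.275.

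In marrow each library held a different part of the system. With at least 100 counts taken as present, 9 to 27 of the 39 members were present in a GLN library and 10 to 16 in an HFD library. The value of 27 came from the GLN library 18_20, which also held the most genes of all kinds, 7323. The other 8 libraries held 9 to 16 members among 1755 to 4257 genes. Members were seldom at middling counts. Of 351 member values in marrow, 112 were 1000 counts or more, 220 were under 100, and 19 lay between. No such shares are given for all genes, so this is not shown to be particular to the members. Over the 9 libraries the median coefficient of variation was 196% for 32 members that reached 100 counts in a library, against 196% for the 7544 genes of that kind that also had 100 counts in every adipose library.

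**Figure D4:**
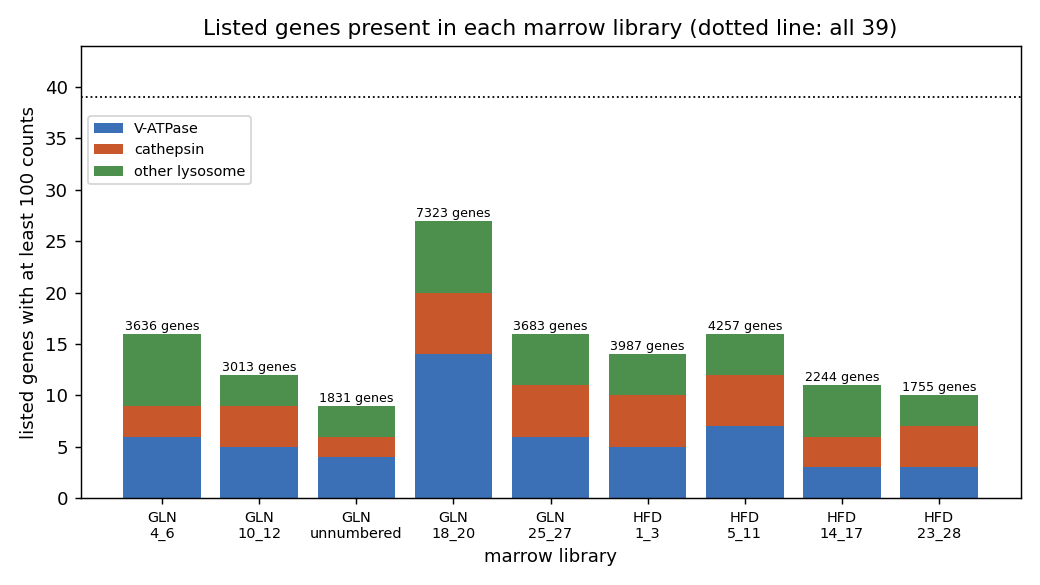
How many of the 39 genes reached 100 counts in each marrow library (bars, stacked by class), GLN left and HFD right. Above each bar stands the number of all genes at that level, and library 18_20 with 27 genes is the only one above 16.

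No marrow library held every pump gene at 100 counts. All libraries but 18_20 held 3 to 7 of the 18 pump genes, and 18_20 held 14. A pump gene was present in 2.94 marrow libraries on average, beside 3.03 for the 8790 genes with 100 counts in every adipose library. The catalytic A subunit (Atp6v1a) was present in 4 libraries and its partner B2 (Atp6v1b2) in 4, and both together in the GLN libraries 18_20 and 25_27. Whether other pairs of genes coincide as often was not tested. The unnumbered GLN library had no V1 subunit at 100 counts, but had Atp6v0a1, Atp6v0d1, Atp6v0e and Atp6ap1. Conversely, the GLN library 10_12 held the A, E1 and H subunits with Tcirg1 and Atp6v0b. Among the a paralogs, Atp6v0a1 had 106, 0.215, 536, 123 and 0.650 CPM in marrow GLN libraries, against 3.79, 0.345, 0.571 and 0.447 CPM in marrow HFD libraries. Tcirg1 had 0.258, 106, 0.415, 62.7 and 0.195 CPM in marrow GLN libraries, against 0.158, 0.0863, 1.04 and 0.248 CPM in marrow HFD libraries. Marrow GLN values run in the order 4_6, 10_12, unnumbered, 18_20 and 25_27, where the unnumbered library's column carries a number pair found in no title of its arm. Library 18_20 held all 3 a paralogs, 6 libraries held 1 of them, and the HFD libraries 14_17 and 23_28 held none.

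The members present in all 9 marrow libraries were 4: Ctsb, Ctsd, Lamp2 and Cd63. Ctsb had 679, 639, 387, 195 and 139 CPM in marrow GLN libraries, against 709.8, 3.31, 351 and 57.6 CPM in marrow HFD libraries. Ctsd, cathepsin D, the main aspartic protease of lysosomes, had 1027, 369, 767, 354 and 132 CPM in marrow GLN libraries, against 209.8, 67.9, 219 and 33.7 CPM in marrow HFD libraries. Lamp2 had 77.2, 1069, 1231, 364 and 367 CPM in marrow GLN libraries, against 455, 331, 186 and 16.5 CPM in marrow HFD libraries. Even these genes differed by more than 10-fold between libraries, apart from Cd63. Cd63, a tetraspanin of late endosomes, had 759.5, 292, 665, 604 and 1225 CPM in marrow GLN libraries, against 1691, 944, 1306 and 828 CPM in marrow HFD libraries. Lamp1, the partner of Lamp2, was present in 8 libraries and had 77 counts in the unnumbered one.

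The members that reached 100 counts in no marrow library were 7: Atp6v0c, Atp6v0e2, Atp6v1g1, Ctsf, Gaa, Tfeb and Mcoln1. Atp6v0c was listed at 0 in all 9. Across the 9 libraries Gaa had 4 to 21 counts, Atp6v1g1 had 3 to 22, and Ctsf had 2 to 14. Tfeb had 0 to 4, and Atp6v0e2 and Mcoln1 had 0 to 5 each. For Gaa this compares with a mean of 4052 counts per adipose library, and for Mcoln1 with 399. The 7 members are 17.9% of the list, and among the 8790 genes with 100 counts in every adipose library 14.2% reached that level in no marrow library. The 4 members present in all 9 are 10.3% of the list, beside 2.92% of those genes. A member was present in 3.36 marrow libraries on average, beside 3.03 for those genes.

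Low marrow counts followed the adipose level of the same gene. For the 32 members under 100 counts in 3 or more marrow libraries, Atp6v0c aside, the median of those low counts was set against the mean adipose count. Across these genes, which share the same 18 libraries and are not independent replicates, Spearman's rho was 0.941 and Pearson's r of log2 values 0.956. The same over 7855 genes gave 0.835 and 0.845. The low marrow count was 25.5 per 10000 adipose counts in the median member, beside 29.9 in the median gene. Both tissues were sequenced in a single lane, per the labels' protocols, and how this bears on the low counts was not tested.

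**Figure D5:**
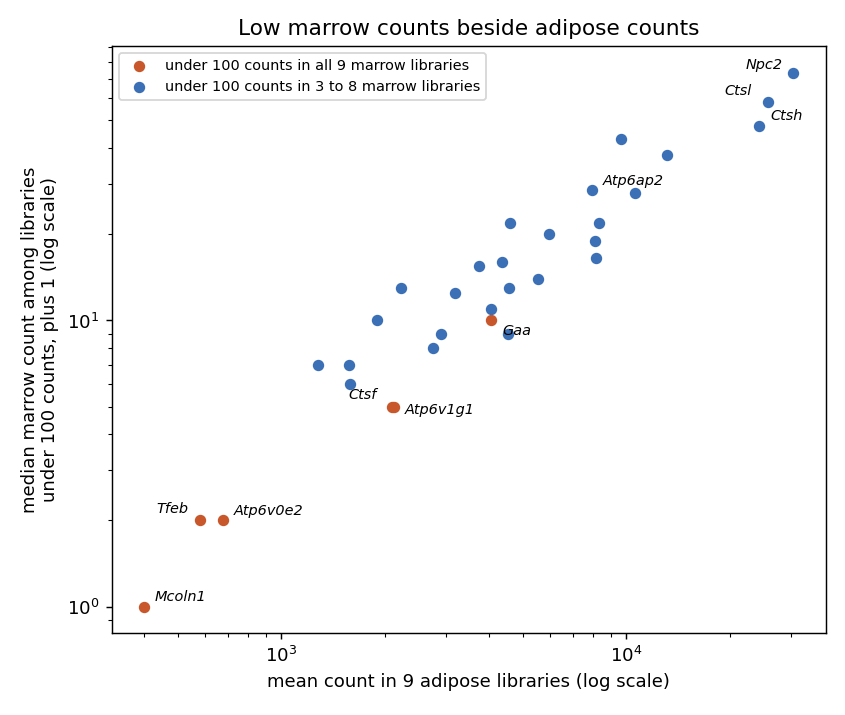
Median marrow count over the libraries under 100 counts, plus 1 (y axis, log scale), beside the mean adipose count (x axis, log scale) for 32 members. Points rise together from Mcoln1 and Tfeb to Ctsl and Npc2, and the 6 members under 100 counts in all 9 marrow libraries lie at the lower end, Gaa highest among them.

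Glutamine was also compared within marrow, where 32 members could be tested. None passed the adjusted threshold, beside 8 of 6041 genes (0.132%). DESeq2 called 3 of the 15 members to which it gave an adjusted p (20.0%), 1 higher and 2 lower, against 20.8% of genes. A fit on all 18 libraries together called 10 of 38 (26.3%), 7 higher and 3 lower, against 25.8% of genes. At an unadjusted p under 0.05 edgeR had 8 of 32 members (25.0%), against 18.7% of all genes. The median log2 fold change was -0.20, close to -0.22 for all genes, with 16 members positive and 16 negative. Groups did not overlap in CPM for 2 members, Atp6v0d1 and Ctsc, against 3.77% of all genes. Both separations lay between trace counts and were set by library totals. For Ctsc the nearest libraries were GLN 25_27 and HFD 14_17, at 11 counts each. For Atp6v0d1 they were GLN 25_27 and HFD 1_3, at 14 counts each.

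Ctsc, cathepsin C, which activates the serine proteases of granulocytes, had the smallest p. It had 6, 4, 5, 7 and 11 counts in marrow GLN libraries, against 15, 2733, 11 and 2658 counts in marrow HFD libraries. Only the HFD libraries 5_11 and 23_28 held the transcript at more than a trace. The log2 fold change was -8.40 ± 3.09 (edgeR, adjusted p = 0.197). Ctss had 11, 14, 9, 24 and 11 counts in marrow GLN libraries, against 26, 3250, 21 and 17 counts in marrow HFD libraries, so that its fold change of -5.29 ± 2.21 (edgeR, adjusted p = 0.197) rested on library 5_11, and was -1.15 without it. Atp6v0a1 had the smallest p of the pump genes, at 7.29 ± 3.06 (edgeR, adjusted p = 0.197). Fitted values of this size depend on the few counts in the lower group.

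The members most often present passed no test by edgeR either. Among pump genes these were Atp6ap1 in 7 libraries, Atp6v0e in 6 and Atp6v1b2 in 4. Atp6v1a, Atp6v1e1, Atp6v1h and Atp6v0a1 were also present in 4, and Atp6v1b2 had the most counts of these 5. Atp6ap1, an accessory protein that helps the pump assemble, had 389, 2.58, 384, 50.9 and 301 CPM in marrow GLN libraries, against 76.2, 23.9, 1.32 and 39.1 CPM in marrow HFD libraries. Atp6v0e had 497, 3.01, 237, 101 and 2.24 CPM in marrow GLN libraries, against 449, 93.1, 1.07 and 271 CPM in marrow HFD libraries, and Atp6v1b2 had 0.646, 0.930, 0.948, 29.4 and 427 CPM in marrow GLN libraries, against 0.790, 248, 136 and 0.447 CPM in marrow HFD libraries. Each was high in some and near 0 in other libraries of both groups. Their log2 fold changes were 2.49 ± 2.31, -0.65 ± 2.01 and -0.68 ± 2.28. That of Atp6v1b2 was -4.45 without the GLN library 25_27 and -0.04 without the HFD library 14_17. Cathepsin L (Ctsl) had 2.24, 82.5, 3.38, 117 and 38.0 CPM in marrow GLN libraries, against 735, 221, 2.64 and 309 CPM in marrow HFD libraries, at -3.38 ± 2.19. Ctsb had 0.25 ± 1.76 and Ctsd 1.64 ± 1.82. For Lamp1, Lamp2 and Cd63 the values were -1.41 ± 1.82, 1.47 ± 1.66 and -1.28 ± 1.29. The adjusted p of each was at least 0.438 (edgeR). Of the pathway lists no gene passed in marrow, among 47 genes tested.

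Adipose tissue was then set against marrow. The tissues also differ in how cells were obtained and in their count table, and these factors cannot be told apart. Here edgeR called 11 of 38 members, 10 higher in adipose and 1 lower. Of all 15203 genes tested, 40.5% were called higher and 11.2% lower. The median log2 difference, adipose over marrow, was 0.43 for members and 1.43 for all genes. Groups of libraries did not overlap in CPM for 7 members with adipose above marrow, against 16% of all genes, and for 0 members below, against 0.21%. With relative log expression factors the median of all genes moved to -1.94 and 26 members were called, 6 higher (15.8%) and 20 lower (52.6%), against 16.2% and 42.9% of all genes. Upper-quartile factors gave 19 called members (55% of all genes), limma-voom 22 (29.4%) and DESeq2 22 (64.6%). The DESeq2 count is out of the 22 members to which it gave an adjusted p. With upper-quartile factors 5 members were higher in adipose and 14 lower, against 21.2% and 33.8% of all genes. By limma-voom 21 were higher and 1 lower, against 26.9% and 2.49%. By DESeq2 6 were higher and 16 lower, against 22.7% and 41.8%. Calls between tissues are therefore given below for all scalings together, and the scaling is named where a call rests on one.

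The 4 fits were edgeR with TMM, relative log expression or upper-quartile factors, and DESeq2. DESeq2 scales much as relative log expression factors do, with Cd63 at -5.68 by both. A gene without an adjusted p from DESeq2 counted as not called, and 22 of 38 members and 9945 of 15203 genes had one. In adipose 5 members were called higher under all 4 fits: Atp6v0e2, Atp6v1g1, Ctsf, Gaa and Mcoln1. This is 13.2% of the members tested, beside 13.5% of all genes. All 5 were under 100 counts in every marrow library and passed the count filter through adipose tissue alone, so that a call was set by that and says nothing further about them. Of the 2049 genes of all kinds with such calls, 90.3% were also under 100 counts in every marrow library. By TMM the log2 differences of the 5 ran from 5.55 to 5.88, beside a median of 5.99 for the 1246 genes present in every adipose and no marrow library. Tfeb lay in the same range, and its call was lost with upper-quartile factors (2.22, adjusted p = 0.061).

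Cd63 was the only member lower in adipose under all 4 fits, 1 of 38 (2.63%) beside 8.87% of all genes. Its log2 difference was -1.85 ± 0.401 (edgeR, adjusted p = 0.00072). Without scaling factors the direction turned: Cd63 averaged 966 ± 158 CPM in adipose and 924 ± 423 CPM in marrow (SD, n = 9 each), and the ranges overlapped, 714 to 1144 CPM in adipose and 292 to 1691 CPM in marrow. Ctss was called higher by TMM at 3.73 ± 1.03 (adjusted p = 0.0051), as were Ctso, Atp6v1d and Npc1, but these calls were lost with the other 2 kinds of edgeR factors. The paralogs Atp6v0a1, Atp6v0a2, Tcirg1 and Atp6v0e gave -0.36 ± 1.00, 0.13 ± 1.09, 1.08 ± 0.993 and -1.84 ± 0.946, and none was called by TMM. Ctsd, with the smallest p of the cathepsins on the lower side, gave -0.85 ± 0.572 (adjusted p = 0.22). Of 14 macrophage markers 4 were called higher and 1 lower in adipose under all 4 fits, beside 8 and 1 by TMM alone.

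Pathway genes outside the list were also compared between the tissues. By TMM 29 of 87 were higher (33.3%) and 8 lower (9.20%), against 40.5% and 11.2% of all genes. Under all 4 fits 12 were higher (13.8%) and 5 lower (5.75%), against 13.5% and 8.87% of all genes. The 12 comprised 6 of 33 hydrolases, 4 of 25 membrane and sorting genes, 1 of 15 signalling genes and MiT factors and 1 of 3 further subunits, while no assembly factor held. Atp6v0d2, the second gene of the d subunit, stood at 5.67 ± 0.932 by TMM, the cystine exporter Ctns at 6.21 ± 0.924 and Lamtor3, a subunit of the Ragulator complex, at 6.13 ± 0.808. The 5 lower ones were Ctse, Dnase2a, Sort1, Tpcn1 and Slc38a9, with Ctse, cathepsin E, at -8.50 ± 1.25 by TMM.

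Whether the glutamine effect differed between the tissues was tested as an interaction, which called 2 of 38 members beside 11.9% of all genes. For Atp6v0d1, the d1 subunit that joins V1 and V0, the effect in adipose minus that in marrow was -7.25 ± 2.10 (edgeR, adjusted p = 0.043). It had 53.1, 60.7, 35.9, 26.8 and 36.5 CPM in adipose GLN libraries, against 26.0, 26.2, 49.9 and 30.4 CPM in adipose HFD libraries. In marrow it had 4640, 12, 1011, 246 and 14 counts in marrow GLN libraries, against 14, 6, 6 and 6 counts in marrow HFD libraries. The GLN libraries 4_6 and the unnumbered one held over 1000 counts, 18_20 held 246, and every HFD library had 14 or fewer. For Ctsc the difference was 7.59 ± 2.09 (edgeR, adjusted p = 0.043), with 53.8, 65.1, 22.1, 57.0 and 60.8 CPM in adipose GLN libraries, against 63.2, 59.6, 43.3 and 90.4 CPM in adipose HFD libraries. Neither call held with upper-quartile or relative log expression factors, by limma-voom, or when any 1 adipose library was left out. A stricter count filter gave 6 called members, against 16% of all genes. DESeq2 called 3 of the 21 members to which it gave an adjusted p (14.3%), against 15.7% of genes. The number of members called ran from 0 to 7 over all 18 libraries left out in turn. No share of all genes is given for those fits, so the range says nothing particular to the members. Atp6v0d1 also lost its call without any 1 marrow HFD library, and Ctsc without the marrow HFD library 23_28. Pathway genes outside the list gave 8 calls among 87 tested, beside the 11.9% of all genes, 1 higher (Manba, beta-mannosidase, at 8.06 ± 2.5) and 7 lower, among them Neu1, Lgmn and Tfe3.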

How the data were processed

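Per the labels' protocols, 30 ng of RNA per sample entered a 3′ end library kit, and only the first read was analysed. The authors deposited whole numbers, read counts for each gene that show no normalization. The submitters' processing notes list GRCm38 with HTSeq 0.11.3, STAR 2.7.10b and FastQC 0.12.1. No molecular identifiers are described, so spreads include amplification.

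The 39 members, the marker and pathway lists and the rule for naming genes were chosen with earlier results of these data known. Values in each library are given for the members with the smallest p per class or comparison, those present in most marrow libraries, the a and e paralogs and Tfeb. Those of Psap were added after its values were seen, as the member with the highest coefficient of variation in adipose libraries, Atp6v0c aside.

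Each tissue was fitted on its 9 libraries with edgeR 4.0.16 (R 4.3.3; filterByExpr, TMM factors, quasi-likelihood F test, two-sided, Benjamini-Hochberg adjustment over all genes tested). The tissue difference and the difference of glutamine effects were fitted on all 18. A gene was called at an adjusted p under 0.05. The standard error is the fold change over the square root of F. CPM are relative to library totals and were used for overlap. DESeq2 1.42.0 and limma 3.58.1 (voom with quality weights) were alternatives. The fits were also run on simulated counts with a small fixed spread, well under that of marrow libraries. That run therefore says nothing of how the fits behave on marrow counts. For the 8 labels shared by both tissues, deviations from group means were correlated over 15203 genes. The correlations ran from -0.0091 to 0.030. Marrow libraries spread widely, so low correlations cannot exclude a shared source. Labels were not treated as pairs in the main fits, and a replicate block with a term for each label was an alternative. Positions and overlaps are from GENCODE's GRCm38 annotation, and promoters from RefSeq.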

Additional observations from a re-analysis of the deposited data

Results flagged for a closer look

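Among the members whose values are given per library, 86 groups of 4 or 5 libraries were examined by Dixon's test. It looks for 1 library far from the rest of its group. Groups with no library at 100 counts were left out, so some marrow groups entered only through their 1 high library. The test's chance rate of about 1 group in 20 assumes normal values. Marrow values were mostly under 100 counts or at 1000 or more, so that rate cannot be applied to marrow groups. The test marked 17 groups. In adipose GLN libraries, 13_15 stood apart for Atp6v0a1 (79.1 CPM, high), Ctsc (22.1 CPM, low) and Grn (414 CPM, high), and 25_27 for Tfeb (20.1 CPM, high). In adipose HFD libraries, 5_11 was high for Atp6v0e (269 CPM). In marrow GLN libraries the high ones were 4_6 for Atp6ap2 (345 CPM), the unnumbered library for Atp6v0a1 (536 CPM), 25_27 for Atp6v1b2 (427 CPM) 10_12 for Atp6v1h (116 CPM) and 18_20 for Psap (30.5 CPM). In marrow HFD libraries 5_11 was high for Atp6ap2 (131 CPM), Atp6v0a2 (32.7 CPM), Atp6v1h (42.1 CPM) and Ctss (93.5 CPM), 14_17 was high for Grn (115.0 CPM) and Psap (220.4 CPM), and 1_3 for Atp6v0a1 (3.79 CPM).

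By edgeR with TMM factors the interaction test called Atp6v0d1 (-7.25 on the log2 scale, adipose effect minus marrow effect) and Ctsc (7.59). These were 1 lower and 1 higher of 38 members tested, beside 11.9% of all genes called. Neither call held with upper-quartile or relative log expression factors or by limma-voom, while DESeq2 called 3 of 21 members (14.3%), against 15.7% of genes. In marrow Atp6v0d1 had 4640 and 1011 counts in the GLN libraries 4_6 and unnumbered, and Ctsc had 2733 and 2658 in the HFD libraries 5_11 and 23_28.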

How the results depend on the processing

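In adipose tissue 0 members were called under every alternative run, and Atp6ap2, Ctsf, Ctss and Ctsb kept their direction in each. When 1 library was left out, the fold change of Atp6v0a2 ran from -0.35 to 0.05 and that of Atp6v0e from -0.17 to 0.07. In marrow DESeq2 called 3 members (20.0%, against 20.8% of genes) and the fit on all 18 libraries 10 (26.3%, against 25.8%), while the others called 0. There, leaving out 1 library gave -1.35 to 0.10 for Atp6v0e, -0.19 to 0.77 for Ctsb and -4.45 to -0.04 for Atp6v1b2.

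Between tissues 26 of 38 members (68.4%, against 59.1% of all genes) were called with relative log expression factors, 19 of 38 (against 55%) with upper-quartile factors and 22 of 38 (57.9%, against 29.4%) by limma-voom. DESeq2 called 22 of the 22 to which it gave an adjusted p, against 64.6% of genes. The members' median was -2.93 with relative log expression factors, -1.76 with upper-quartile factors, 2.92 by limma-voom, -2.93 by DESeq2, 3.48 with the replicate block, and 0.381 to 1.48 when 1 library was left out. Signs turned as follows. Atp6v0a1 gave 1.69 by limma-voom, 2.28 with the block, 2.99 in the HFD groups alone, and -0.53 to 0.87 when 1 library was left out. Atp6v0a2 gave -3.35 with relative log expression factors and by DESeq2, -1.44 with upper-quartile factors, -0.88 in the GLN groups alone, and -0.01 to 2.36 when 1 library was left out. Atp6v0e gave 0.18 by limma-voom and 0.41 with the block, and Ctsd 0.10 in the HFD groups alone. Tcirg1 gave -2.63, -2.62 and -2.62 with relative log expression factors, upper-quartile factors and DESeq2, and -1.55 in the GLN groups alone. The cause was not tested.

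For the difference of glutamine effects, 0 members were called with relative log expression factors, upper-quartile factors, limma-voom or the replicate block. A stricter count filter called 6 (15.8%, against 16% of all genes), and DESeq2 3 of 21 (14.3%, against 15.7%). When 1 library was left out 0 to 7 were called, with no share of all genes given beside them. Whether shared labels mean a shared source is not stated, so results with and without the block are both given. The members at the count minimum in all marrow libraries numbered 4 at 100 counts, 10 at 30 and 1 at 1000, alternatives chosen after seeing the data. For the minimums of 30 and 1000 no share of all genes is given. In marrow 220 of 351 member values were under 100 counts, which limits what could be compared.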
